A study of Homo sapiens with 6 samples.

Results

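The cytosolic HSP70 and HSP110 chaperones were followed in OVCAR5 cells, an established ovarian cancer cell line, after treatment with SpiD7. The rule names the members by symbol and uses no threshold on their values, although earlier results of these data were known when the list was drawn up. The members were the HSP70 genes HSPA1A, HSPA1B, HSPA1L, HSPA2, HSPA6 and HSPA8 and the HSP110 genes HSPA4, HSPA4L and HSPH1. All 9 were among the 29982 gene symbols of the deposited table, and all 9 were among the 13287 genes with a mean of at least 1 FPKM over the libraries, FPKM being the fragments mapped to a transcript scaled by its length and by the depth of the library. SpiD7 is a spirocyclic dimer, and the study asked whether it activates the unfolded protein response. OVCAR5 cells received vehicle (DMSO, 2 libraries) or 10 µM SpiD7 for 2 h (2 libraries), 6 h (1 library) or 12 h (1 library), and their RNA was sequenced. The labels give no duration for the vehicle, and nothing in them says that the replicates came from separate cultures, so that p-values measure only the spread between these libraries. All 4 groups were of the same cell line with no genetic change named, and other cell lines were not analysed here.

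HSP70 chaperones bind exposed hydrophobic stretches of unfolded proteins and release them in a cycle driven by ATP. J-domain proteins deliver clients and trigger ATP hydrolysis, and HSP110 proteins, which are distant relatives of HSP70, act mainly as its nucleotide exchange factors. HSPA8 is the constitutive cytosolic HSP70, whereas HSPA1A, HSPA1B and HSPA6 are the classical genes switched on by heat shock factor 1 (HSF1) when damaged proteins accumulate. HSF1 binds heat shock elements, which are inverted repeats of GAA and TTC units.

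The promoters of 4 members are shown because these genes made up most of the members' RNA after SpiD7. Each sequence is the 250 bases before the transcription start that RefSeq gives in GRCh38.p14, read 5′ to 3′ on the strand of the gene, and capitals mark matches to heat shock element letters. The HSPA6 stretch is chr1:161524290-161524539 (plus strand), that of HSPA8 chr11:123062137-123062386 (minus strand), that of HSPA1A chr6:31815293-31815542 (plus strand) and that of HSPA1B chr6:31827488-31827737 (plus strand).
HSPA6: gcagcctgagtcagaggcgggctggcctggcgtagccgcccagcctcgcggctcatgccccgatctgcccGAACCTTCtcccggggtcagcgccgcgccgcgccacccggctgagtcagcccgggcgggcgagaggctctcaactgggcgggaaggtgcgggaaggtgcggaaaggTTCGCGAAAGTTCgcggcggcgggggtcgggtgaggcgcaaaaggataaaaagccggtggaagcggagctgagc
HSPA8: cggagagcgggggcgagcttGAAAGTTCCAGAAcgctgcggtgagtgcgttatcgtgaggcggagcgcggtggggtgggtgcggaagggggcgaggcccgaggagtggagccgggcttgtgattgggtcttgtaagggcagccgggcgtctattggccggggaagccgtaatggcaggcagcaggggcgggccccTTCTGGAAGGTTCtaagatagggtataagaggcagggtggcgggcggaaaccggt
HSPA1A: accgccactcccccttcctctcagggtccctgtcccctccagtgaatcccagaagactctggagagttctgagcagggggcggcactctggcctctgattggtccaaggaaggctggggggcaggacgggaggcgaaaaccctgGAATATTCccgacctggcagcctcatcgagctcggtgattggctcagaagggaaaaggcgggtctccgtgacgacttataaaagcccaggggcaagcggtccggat
HSPA1B: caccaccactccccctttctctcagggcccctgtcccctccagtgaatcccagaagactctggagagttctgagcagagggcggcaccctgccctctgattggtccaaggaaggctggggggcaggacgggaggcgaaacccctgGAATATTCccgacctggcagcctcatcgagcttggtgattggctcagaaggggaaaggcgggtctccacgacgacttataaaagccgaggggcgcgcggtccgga

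The letters searched were GAANNTTC and TTCNNGAA (2 units) and the same letters followed by NNGAA and by NNTTC, respectively (3 units), in windows from 250 bases before to 50 bases after the start. These patterns cover both strands, and each match of 3 units also holds matches of 2 units. HSPA6 held a 3-unit match at positions -74 to -62 relative to its start and a further 2-unit match at -180 to -173. HSPA8, although the most abundant member without treatment, held 3-unit matches at 2 places, -230 to -218 and -55 to -43. HSPA1A and HSPA1B each held 1 match of 2 units, at -106 to -99 and at -105 to -98. Their 300-base windows were 92.0% identical (277 of 301 aligned positions). HSPA1L, transcribed in the opposite direction, shared 241 bases of its window with that of HSPA1A, and its single match was the same stretch of the genome (chr6:31815437-31815444). HSPA4L held a 2-unit match in 1 of its 3 windows, and the windows of HSPA4, HSPH1 and HSPA2 held none. Among all 35116 RefSeq promoter windows, 13.5% held a 2-unit match and 0.49% a 3-unit match, against 6 and 2 of the 11 windows of the 9 members, all of which were matched to RefSeq. A match is a likeness of letters, and binding was not measured.

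**Figure D1:**
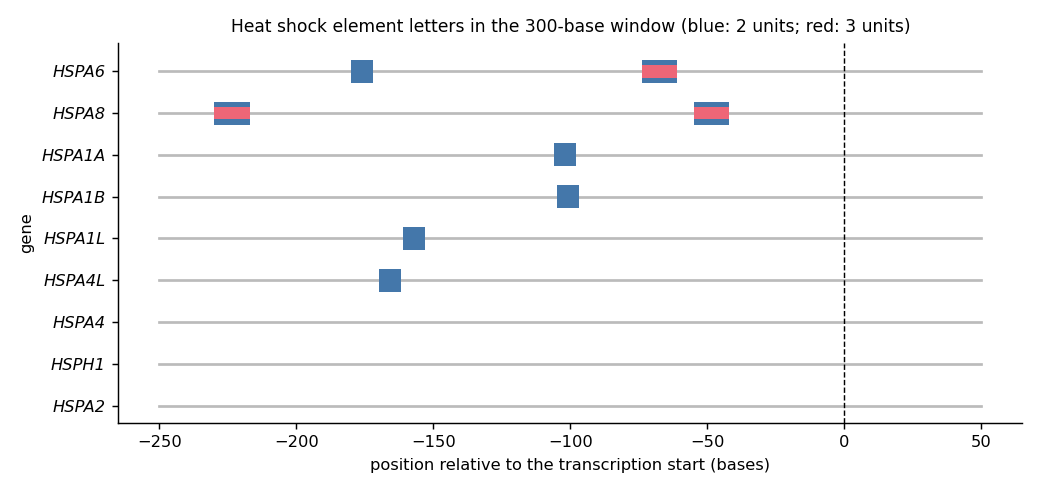
Positions of heat shock element letters in the promoter windows of the 9 members, in bases relative to the transcription start (dashed line), with 2-unit matches in blue and 3-unit matches in red. Only HSPA6 and HSPA8 hold 3-unit matches, and HSPA4, HSPH1 and HSPA2 hold no match in this window.

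Some members cannot be fully separated by 50-base reads. Of all 50-base stretches of the longest HSPA1A transcript in GENCODE 29, 72.6% also occur in HSPA1B, and 71.4% of those of HSPA1B occur in HSPA1A. For HSPA6, 45.5% occur in HSPA7, an unprocessed pseudogene, and for HSPA8 15.4% occur in 11 other genes, among them its pseudogene copy HSPA8P1. HSPA4 and HSPH1 shared no stretch (0%), HSPA2 shared 0.804%, HSPA1L 2.44% and HSPA4L 7.2%, the last spread over 723 other genes. The split between HSPA1A and HSPA1B is therefore uncertain, and their sum is given beside the single values. The table places HSPA1A and HSPA1L under a single locus, chr6:31809619-31821040 (hg38), although in GENCODE their exons share 0 bases. The strand setting of the counting is not given in the sources used here, so that reads of these neighbours on opposite strands may not be fully told apart.

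Differences between the controls touch every fold change. The deposited columns named for replicate 2 hold the first library too. They were read as group means, and replicate 2 of DMSO and of 2 h was recovered from them. This reading rests on the values alone, it cannot be told apart from a merging of reads before counting, and every replicate 2 value and p-value given here depends on it. The 2 DMSO libraries differed more than 2-fold in 13.5% of all genes and in 3 of the 9 members, HSPA4L, HSPA6 and HSPH1. Replicate 2 of DMSO was below replicate 1 in 7 of the 9 members and in 54.1% of all genes. MIR6723, a microRNA locus, took 25.0% and 21.8% of all FPKM in the recovered DMSO and 2 h libraries, against 6.93% to 9.19% in the first DMSO, first 2 h and 12 h libraries. All 7 epithelial markers (such as KRT8 and EPCAM) were expressed, with a summed level of 3214 to 4822 FPKM. Of 8 stromal, endothelial and blood markers, 3 passed the filter, and the summed level was 25.0 to 50.3 FPKM. Most of that sum was CD68, at 22.7 to 37.3 FPKM, while COL1A1 stood at 0.596 to 2.18 FPKM. COL1A2, DCN, VWF and PTPRC stayed below 0.13 FPKM in each library, and HBB was listed at 0 in all but the first 2 h library (0.476 FPKM). PECAM1 stood at 10.7 and 7.74 FPKM in the recovered DMSO and 2 h libraries and at 0.320 to 0.961 FPKM in the other 4. The part of these differences in the members' values was not tested.

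In DMSO the members were ordered alike in both libraries. HSPA8 was highest, followed by HSPA4, HSPH1, HSPA1A, HSPA1B, HSPA2, HSPA4L, HSPA1L and HSPA6. Only the neighbours HSPA1A (33.7 and 44.3 FPKM) and HSPA1B (25.2 and 34.2 FPKM) overlapped in level. HSPA6, at 0.317 and 0.0965 FPKM, and HSPA1L, at 0.580 and 0.641 FPKM, passed the filter on low values only through the SpiD7 libraries. At 12 h the order was HSPA8, HSPA1A, HSPA1B, HSPA6, HSPH1, HSPA4, HSPA4L, HSPA2 and HSPA1L, so that HSPA6 had moved from last to the fourth place. This order at 12 h rests on a single library.

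At 2 h, 5 of the 9 members were more than 2-fold higher than the mean log2 level of DMSO (HSPA6, HSPA1B, HSPA1L, HSPA1A and HSPH1), where 2.32% of all genes were, and 0 were more than 2-fold lower (0.662% of all genes). At 6 h, HSPA4L and HSPA8 joined them, making 7 of 9 (5.66% of all genes). At 12 h HSPA4 was also past 2-fold, making 8 of 9 (6.48% of all genes), and HSPA2 was the exception. At 6 h and 12 h again 0 members were more than 2-fold lower, beside 3.1% and 3.76% of all genes. The count depended somewhat on the control. Against DMSO replicate 1 alone it was 6 of 9 at 6 h (6.28% of all genes) and 7 of 9 at 12 h (8.21%), and against replicate 2 alone it was 8 of 9 (7.76%) and 8 of 9 (7.01%). In the order 2 h, 6 h and 12 h, the members' median log2 fold change was 1.64, 2.97 and 3.24, beside -0.01, 0.03 and -0.05 over all genes. The 3 comparisons share the DMSO libraries and are not independent of each other. HSPA6 and HSPA1L passed the filter on low values only through the SpiD7 libraries. They are in each count of higher members and in the medians, and HSPA1A and HSPA1B share reads. These counts and medians are therefore descriptions, and no support for a difference of the members as a group. All fold changes are on the log2(FPKM + 0.1) scale, where the added 0.1 shrinks those of weakly expressed genes.

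**Figure D2:**
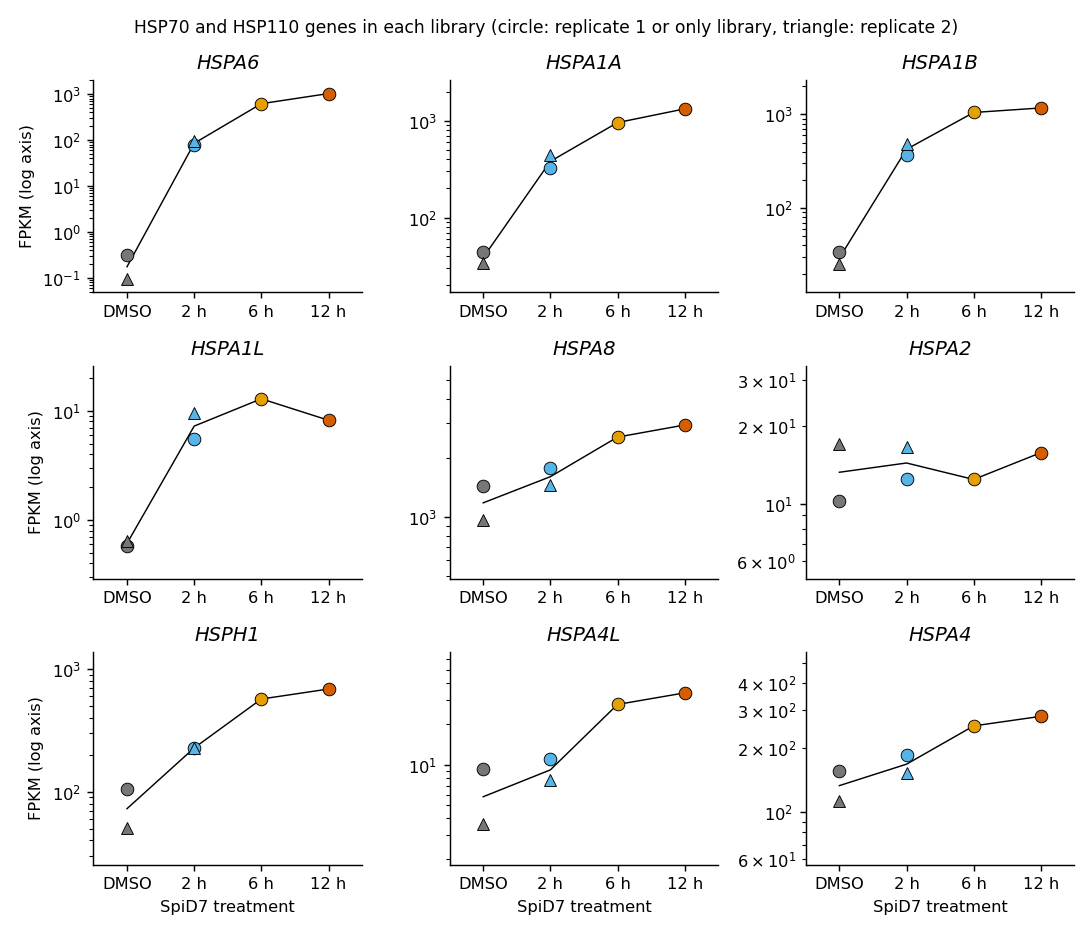
FPKM (log axis) of each member in DMSO and after 2 h, 6 h and 12 h of SpiD7. Circles mark replicate 1 or the only library, triangles the recovered replicate 2, and the line joins group means taken on the log scale. HSPA6 spans from 0.0965 to 1030.1 FPKM, HSPA2 stays between 10.2 and 17.0 FPKM, and HSPA1L alone is lower at 12 h (8.19 FPKM) than at 6 h (12.9 FPKM) while remaining above DMSO.

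The same groups of genes were tested with limma on all 6 libraries, with Benjamini-Hochberg adjustment over 13287 genes. The lone libraries of 6 h and 12 h were assumed to vary like the replicated DMSO and 2 h groups. With an adjusted p-value under 0.05 and more than 2-fold as the call, 0 of the 9 members were called higher at 2 h (0.0% of all genes), 1 at 6 h (0.263%) and 1 at 12 h (0.324%). The members called lower numbered 0 at each time, beside 0.0226%, 0.0301% and 0.0151% of all genes. The called gene was HSPA6 at both times. It passed the filter on low values only through the SpiD7 libraries, and each later time has 1 library, so that this count is a description and no support for a difference of the members as a group. At an unadjusted p-value under 0.05, 5 members passed at 2 h (2.84% of all genes), 8 at 6 h (5.55%) and 8 at 12 h (9.19%), so that HSPA2 alone did not pass at either later time. HSPA6 and HSPA1L, which passed the filter on low values only through the SpiD7 libraries, were among the members passing at each time. These counts are therefore descriptions too, and no support for a difference of the members as a group. In 6 of 9 members each 2 h library exceeded each DMSO library (13.7% of all genes), namely the 5 above and HSPA8. The 6 h and the 12 h library each lay above both DMSO libraries in 8 of 9 members (31.6% and 30.1% of all genes), and HSPA2 was again the exception. HSPA6 and HSPA1L are in each of these counts as well, which are likewise descriptions.

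HSPA6 is the strictly inducible HSP70, which most cells barely express without stress. It is a single-exon gene at chr1:161524540-161526910 (GRCh38, plus strand). Its level was 0.317 and 0.0965 FPKM in DMSO and, with SpiD7, 77.5 and 93.6 FPKM (2 h), 620.0 FPKM (6 h) and 1030.1 FPKM (12 h). The groups did not overlap, and the lowest SpiD7 library exceeded the highest DMSO library by far more than the DMSO libraries differed. HSPA6 was 2167-fold higher at 6 h (log2 fold change 11.08 ± 0.55, standard error; adjusted p = 0.0353 by limma) and 3601-fold higher at 12 h (11.81 ± 0.55; adjusted p = 0.0246 by limma). The size of these folds depends on the pseudocount, because the DMSO levels are close to the 0.1 FPKM added. With pseudocounts of 1 and 0.01, the log2 fold change was 9.01 and 11.70 at 6 h and 9.75 and 12.43 at 12 h. At 2 h it was 298-fold higher (8.22 ± 0.45), which did not pass the adjustment (adjusted p = 0.209 by limma). The calls did not hold under each alternative. Without either 2 h library, the adjusted p-value by limma was 0.178 at 6 h and 0.127 at 12 h. With a pseudocount of 0.01 it was 0.0967 and 0.0705, and with no filter on low values 0.0706 and 0.0467. Over all alternatives with a test the adjusted p-value by limma ranged from 0.00799 to 0.178 at 6 h and from 0.00412 to 0.127 at 12 h. Against DMSO replicate 1 alone, the 12 h log2 fold change was 11.27, and against replicate 2 alone it was 12.36. Among all genes, HSPA6 had the 6th highest log2 fold change at 2 h, the 23rd at 6 h and the 20th at 12 h.

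HSPA7, the pseudogene whose reads can be confused with those of HSPA6, was listed at 0 in both DMSO libraries, at 3.16 FPKM in both 2 h libraries and at 24.7 and 51.5 FPKM in the 6 h and 12 h libraries. The level of HSPA6 was 20.0 to 29.6 times that of HSPA7 in the 4 SpiD7 libraries. No fold or p-value is given for HSPA7, since both would be set by the 0 of the DMSO libraries. How far HSPA7 reads came from HSPA6 transcripts was not tested.

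HSPA1A and HSPA1B encode the main stress-inducible HSP70 of human cells and lie close together in the major histocompatibility region, at chr6:31815464-31817946 and chr6:31827735-31830255 (GRCh38, both on the plus strand). HSPA1A stood at 44.3 and 33.7 FPKM in DMSO and, with SpiD7, 326 and 446 FPKM (2 h), 959 FPKM (6 h) and 1330.1 FPKM (12 h). HSPA1B stood at 34.2 and 25.2 FPKM in DMSO and, with SpiD7, 373 and 484 FPKM (2 h), 1049 FPKM (6 h) and 1172 FPKM (12 h). For both genes each SpiD7 library lay far above each DMSO library. HSPA1A was 9.85-fold, 24.8-fold and 34.3-fold higher at 2 h, 6 h and 12 h, with log2 fold changes of 3.30 (standard error 0.27), 4.63 and 5.10 (standard error 0.33 for both). HSPA1B was 14.4-fold, 35.6-fold and 39.8-fold higher, with log2 fold changes of 3.85 (standard error 0.27), 5.15 and 5.31 (standard error 0.33 for both). Neither gene passed the adjusted threshold at any time. The adjusted p-values by limma were 0.539, 0.104 and 0.0680 for HSPA1A and 0.379, 0.0750 and 0.0565 for HSPA1B.

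Because the 2 copies share reads, their sum is the safer quantity. It was 78.5 and 59.0 FPKM in DMSO and, with SpiD7, 699.6 and 930.1 FPKM (2 h), 2008 FPKM (6 h) and 2503 FPKM (12 h). The sum was thus 11.9-fold, 29.5-fold and 36.8-fold higher than in DMSO. The level of HSPA1A relative to HSPA1B was 1.29 and 1.34 with DMSO and, with SpiD7, 0.874 and 0.922 (2 h), 0.914 (6 h) and 1.13 (12 h). HSPA1A was therefore the higher copy in DMSO and at 12 h and the lower copy at 2 h and 6 h. Whether this order comes from the division of shared reads was not tested.

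HSPA1L, best known for expression in the testis, lies beside HSPA1A at chr6:31809619-31815065 on the minus strand. Its level was 0.580 and 0.641 FPKM in DMSO and, with SpiD7, 5.52 and 9.48 FPKM (2 h), 12.9 FPKM (6 h) and 8.19 FPKM (12 h). Even the lowest SpiD7 library was well above DMSO, and the highest level was at 6 h. The log2 fold changes were 3.37 (standard error 0.33), 4.19 and 3.55 (standard error 0.41 for both), with adjusted p-values by limma of 0.698, 0.218 and 0.263. With a pseudocount of 1 the log2 fold changes were 2.36, 3.11 and 2.51. HSPA1L was the only member lower at 12 h than at 6 h (log2 difference -0.65), but with 1 library at each time no spread is known for this step. The ratio of HSPA1A to HSPA1L was 47.1 to 76.3 in the first 5 libraries and 162 at 12 h.

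HSPA8 encodes HSC70, the constitutive HSP70 that serves folding, membrane traffic and chaperone-mediated autophagy (chr11:123057489-123063230, minus strand). Its level was 1431 and 967 FPKM in DMSO and, with SpiD7, 1773 and 1442 FPKM (2 h), 2545 FPKM (6 h) and 2933 FPKM (12 h). The lower 2 h library exceeded the higher DMSO library only slightly. HSPA8 was 1.36-fold, 2.16-fold and 2.49-fold higher at 2 h, 6 h and 12 h, with log2 fold changes of 0.44 (standard error 0.29), 1.11 and 1.32 (standard error 0.35 for both). The adjusted p-values by limma were 0.841 at 6 h and 0.496 at 12 h. Against DMSO replicate 1 alone the 6 h log2 fold change was 0.83, below 2-fold, and against replicate 2 alone it was 1.40. By level, HSPA8 was the 76th and 109th highest of all gene symbols in DMSO and the 32nd at 12 h.

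HSPA2, best known as a testis HSP70 needed in meiosis, did not follow the others (chr14:64535905-64546173, plus strand). Its level was 10.2 and 17.0 FPKM in DMSO and, with SpiD7, 12.5 and 16.5 FPKM (2 h), 12.4 FPKM (6 h) and 15.7 FPKM (12 h). Every SpiD7 value lay between the 2 DMSO values. The log2 fold changes were 0.12, -0.09 and 0.25 (standard errors 0.35, 0.43 and 0.43), and their direction turned when single libraries were left out. The adjusted p-values by limma were 0.992 at 6 h and 0.897 at 12 h.

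**Figure D3:**
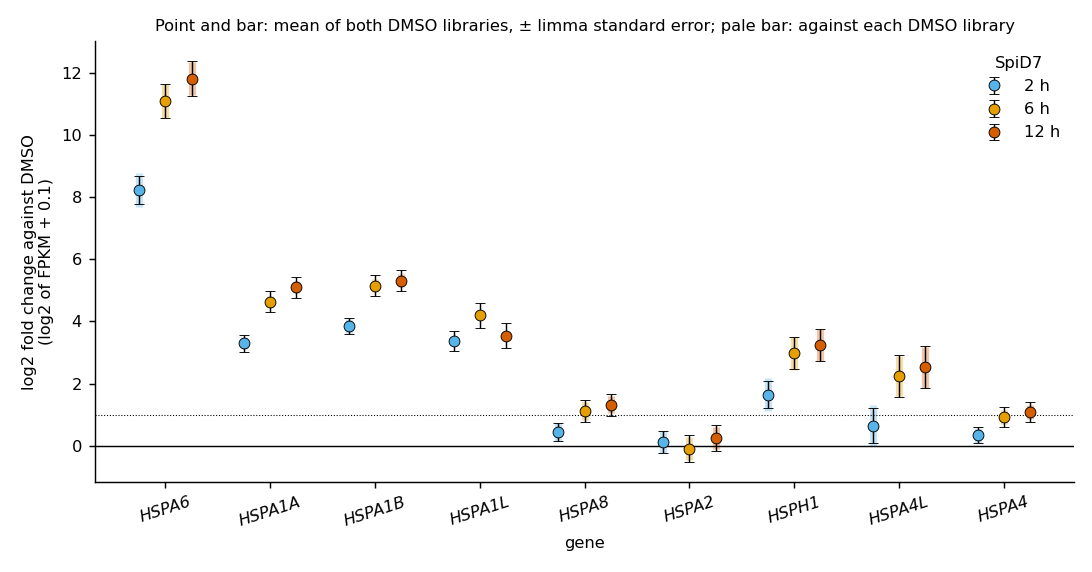
Log2 fold change of each member against DMSO at 2 h, 6 h and 12 h on the log2(FPKM + 0.1) scale, with points for the mean of both DMSO libraries, thin bars for the limma standard error and pale bars for the range against each DMSO library alone. HSPA6 reaches 11.81 at 12 h, HSPA1A and HSPA1B reach 5.10 and 5.31, and HSPA2 stays near 0 (solid line), with the dotted line at 2-fold.

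HSPH1 encodes HSP105, the heat-inducible HSP110 (chr13:31134974-31162388, minus strand). Its level was 104 and 50.6 FPKM in DMSO and, with SpiD7, 226 and 229 FPKM (2 h), 569.5 FPKM (6 h) and 687 FPKM (12 h). The 2 h libraries were nearly equal and both lay above DMSO, whereas the DMSO libraries differed by 1.04 on the log2 scale. HSPH1 was 3.13-fold, 7.83-fold and 9.45-fold higher, with log2 fold changes of 1.64 (standard error 0.42), 2.97 and 3.24 (standard error 0.52 for both). It did not pass the adjusted threshold (adjusted p = 0.517 at 6 h and 0.401 at 12 h by limma). Even against the higher DMSO library alone, the 12 h log2 fold change was 2.72.

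HSPA4L and HSPA4 encode the other HSP110 proteins, APG-1 and APG-2. HSPA4L (chr4:127781821-127840733, plus strand) stood at 9.20 and 3.64 FPKM in DMSO and, with SpiD7, 10.9 and 7.65 FPKM (2 h), 27.8 FPKM (6 h) and 33.8 FPKM (12 h). The 2 h values overlapped DMSO, and both later libraries lay above it. HSPA4L was 4.73-fold and 5.76-fold higher at 6 h and 12 h (log2 fold changes 2.24 and 2.52, standard error 0.68, adjusted p = 0.827 and 0.496 by limma). Without DMSO replicate 2 these log2 fold changes were 1.58 and 1.87, and without replicate 1 they were 2.90 and 3.18. Its DMSO libraries differed by 1.31 on the log2 scale, the widest gap among the members. HSPA4 (chr5:133051962-133106449, plus strand) stood at 156 and 113 FPKM in DMSO and, with SpiD7, 185 and 151 FPKM (2 h), 253 FPKM (6 h) and 280.4 FPKM (12 h). It too overlapped DMSO at 2 h and lay above it later. HSPA4 was 1.90-fold and 2.11-fold higher at 6 h and 12 h (log2 fold changes 0.93 and 1.08, standard error 0.31, adjusted p = 0.899 and 0.507 by limma). Against DMSO replicate 1 alone the 12 h log2 fold change of HSPA4 was 0.85, below 2-fold.

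The members' summed level was 1790.2 and 1211 FPKM in DMSO and, with SpiD7, 2989.6 and 2879.7 FPKM (2 h), 6048 FPKM (6 h) and 7491 FPKM (12 h). The sum was 1.99-fold, 4.11-fold and 5.09-fold higher than in DMSO. It made up 0.216% and 0.113% of all FPKM with DMSO and, with SpiD7, 0.356% and 0.327% (2 h), 0.618% (6 h) and 0.705% (12 h). With MIR6723 left out of all FPKM, the share was 0.237% and 0.151% with DMSO. With SpiD7 it was then 0.390% and 0.419% (2 h), 0.651% (6 h) and 0.757% (12 h), so that the order of the 2 h libraries turned. In such bulk libraries a change in the share of expressing cells and a change in RNA per cell cannot be told apart.

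The make-up of this sum also differed. HSPA8 held 79.9% of it in both DMSO libraries and, with SpiD7, 59.3% and 50.1% (2 h), 42.1% (6 h) and 39.2% (12 h). HSPA1A and HSPA1B together held 4.38% and 4.87% with DMSO and, with SpiD7, 23.4% and 32.3% (2 h), 33.2% (6 h) and 33.4% (12 h). Their share therefore differed little between the second 2 h library and 12 h, whereas the share of HSPA6 went from 2.59% and 3.25% (2 h) to 10.3% (6 h) and 13.8% (12 h). For each FPKM of HSPA1A and HSPA1B there were 18.2 and 16.4 FPKM of HSPA8 in DMSO and 1.17 FPKM at 12 h. The level of HSPA8 was nonetheless the highest of the 9 in each library.

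**Figure D4:**
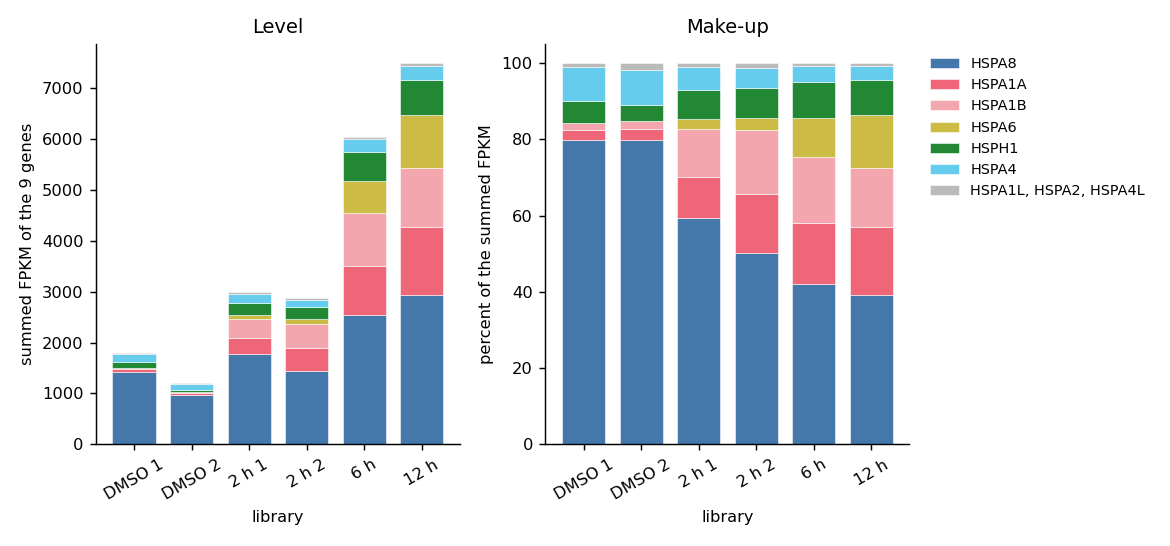
Summed FPKM of the 9 members (left) and the percent of that sum held by each (right) in each of the 6 libraries, with HSPA1L, HSPA2 and HSPA4L joined. The sum goes from 1211 and 1790.2 FPKM in DMSO to 7491 FPKM at 12 h, while the HSPA8 share goes from 79.9% to 39.2%.

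The balance between HSP70 and its HSP110 exchange factors varied less. The 3 HSP110 genes summed to 269 and 167 FPKM in DMSO and, with SpiD7, 421 and 388 FPKM (2 h), 850.1 FPKM (6 h) and 1001 FPKM (12 h). The HSP110 sum was 1.91-fold, 4.01-fold and 4.72-fold higher than in DMSO, and the sum of the 6 HSP70 genes 2.01-fold, 4.13-fold and 5.15-fold. The ratio of summed HSP70 to summed HSP110 was 5.65 and 6.25 with DMSO and, with SpiD7, 6.10 and 6.43 (2 h), 6.11 (6 h) and 6.48 (12 h). The 2 DMSO libraries thus spanned most of the range of this ratio.

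Levels were ordered as DMSO below 2 h, 2 h at or below 6 h and 6 h at or below 12 h in 7 of the 9 members (8.78% of all genes), the exceptions being HSPA1L and HSPA2. From 2 h to 6 h the log2 differences were 2.86 for HSPA6, 1.33 for HSPA1A, 1.30 for HSPA1B, 1.33 for HSPH1 and 1.59 for HSPA4L. From 6 h to 12 h the same genes differed by 0.73, 0.47, 0.16, 0.27 and 0.28, each less than over the earlier step, and no spread is known for steps between single libraries. At 12 h against 2 h, a contrast added after the data were examined, 5 of 9 members were more than 2-fold higher (3.63% of all genes), and limma with Benjamini-Hochberg adjustment called 0 of 9 (0.339% of all genes). HSPA6 differed by a log2 value of 3.59 (adjusted p = 0.637 by limma), and 4 members had an unadjusted p-value under 0.05 (6.01% of all genes). HSPA6 was among these 4 and among the 5 and the 7 members counted above, so that these counts are descriptions too.

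The partners of HSP70 were described by lists. Of the 9 J-domain cochaperones of cytosolic HSP70, 3, 4 and 4 were more than 2-fold higher in the order of the times (2.32%, 5.66% and 6.48% of all genes), 0 were called at each (0.0%, 0.263% and 0.324% of all genes), and the median log2 fold change was 0.33, 0.65 and 0.87. DNAJB1, the main stress-inducible J-domain protein, stood at 106 and 127 FPKM in DMSO and, with SpiD7, 519.6 and 621 FPKM (2 h), 1414 FPKM (6 h) and 1513 FPKM (12 h) (log2 fold change at 12 h 3.70, adjusted p = 0.0747 by limma). DNAJA4 followed with a 12 h log2 fold change of 2.85, and DNAJB5 was lowest with -0.07. Of 11 nucleotide exchange factors and adaptors, 1, 1 and 3 were more than 2-fold higher and 0 were called, with medians of 0.04, 0.23 and 0.27, where the same shares of all genes apply. The single gene at 2 h and 6 h was BAG3, and a single gene of 11 is no result about the list. BAG3, which links HSP70 to autophagy, had the highest fold change of this list, with 40.5 and 28.0 FPKM in DMSO and, with SpiD7, 97.2 and 107 FPKM (2 h), 292 FPKM (6 h) and 438 FPKM (12 h) (log2 fold change at 12 h 3.70). STIP1, the adaptor between HSP70 and HSP90, had a 12 h log2 fold change of 1.11, and STUB1, the ubiquitin ligase CHIP, was lowest with -0.37. None of these 20 genes was more than 2-fold lower at any time (0 at each), beside 0.662%, 3.1% and 3.76% of all genes. With shares this low, 0 of 20 is no result about these lists.

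Of 7 heat shock factors and their regulators, 1, 2 and 2 were more than 2-fold higher (2.32%, 5.66% and 6.48% of all genes) and 0 were called (0.0%, 0.263% and 0.324% of all genes), with medians of 0.31, 0.16 and 0.25. The genes counted were ZFAND2A at each time and CHORDC1 at 6 h and 12 h, and the factors HSF1, HSF2 and HSF4 were not among them. So few genes of 7 are no result about the list. HSF1, the factor that drives inducible HSP70, stood at 52.0 and 44.2 FPKM in DMSO and, with SpiD7, 45.4 and 39.2 FPKM (2 h), 51.1 FPKM (6 h) and 45.2 FPKM (12 h). Its SpiD7 values lay between the DMSO values, except for the second 2 h library, which lay below both. RNA levels do not report its activity. ZFAND2A, a known heat shock target, had the highest fold change of this list (log2 fold change at 12 h 4.72), with 36.9 and 23.1 FPKM in DMSO and, with SpiD7, 152 and 192 FPKM (2 h), 683 FPKM (6 h) and 771 FPKM (12 h). CHORDC1 had a 12 h log2 fold change of 1.66 and HSF4 one of -0.35.

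Of 8 HSP70 relatives of other compartments or more distant descent, 7 passed the filter. Among these 1, 2 and 2 were more than 2-fold higher (2.32%, 5.66% and 6.48% of all genes), namely HSPA7, whose DMSO values are 0, and at 6 h and 12 h also HSPA5. Apart from HSPA7, 0 were called (0.0%, 0.263% and 0.324% of all genes). The medians were 0.14, 0.58 and 0.53. HSPA5, the HSP70 of the endoplasmic reticulum, stood at 197 and 337 FPKM in DMSO and, with SpiD7, 229 and 354 FPKM (2 h), 638 FPKM (6 h) and 1378 FPKM (12 h). Its 2 h values overlapped DMSO, where those of HSPA6, HSPA1A and HSPA1B did not. Those of the cytosolic HSPA2, HSPA4 and HSPA4L overlapped DMSO as well. These contrasts between genes were not tested. HYOU1, the HSP110 relative of the endoplasmic reticulum, had a 12 h log2 fold change of 0.18. Promoter windows were found for 28 of the listed partner genes. Of these windows, 11 of 42 held a 2-unit match (13.5% of all promoter windows). A 3-unit match was held by 3 (0.49% of all promoter windows), those of CHORDC1, DNAJA1 and DNAJB6.

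**Figure D5:**
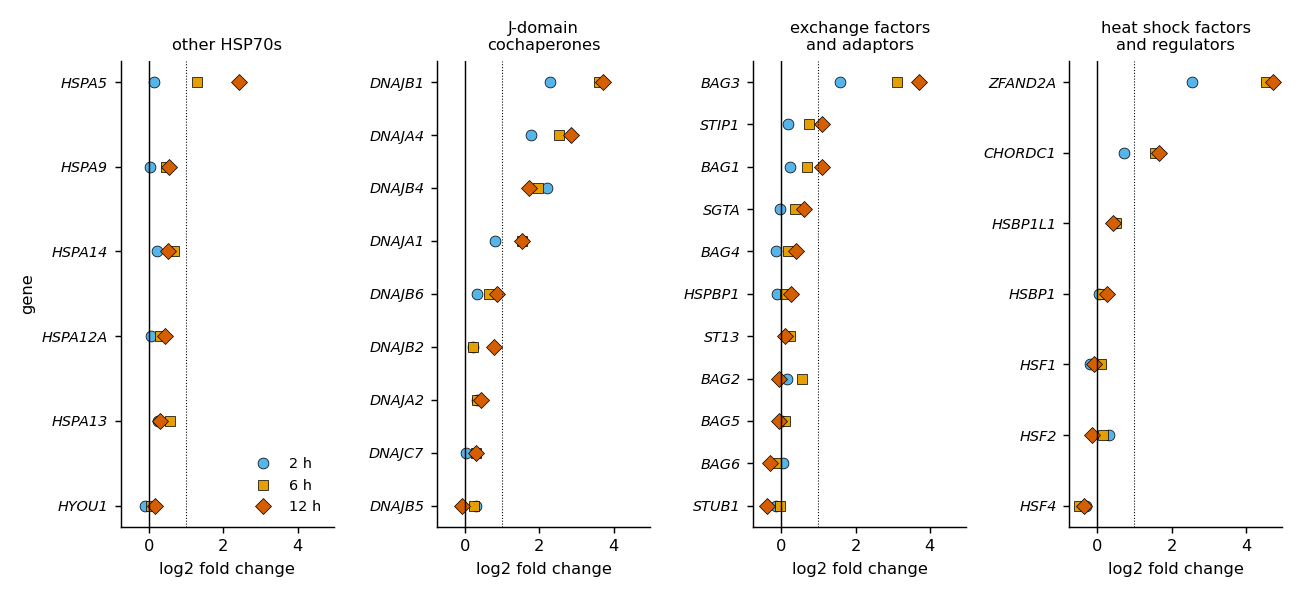
Log2 fold change against the mean of both DMSO libraries at 2 h (circles), 6 h (squares) and 12 h (diamonds) for the partners of HSP70 in 4 lists, with the dotted line at 2-fold. HSPA7 is left out because it is listed at 0 in DMSO. DNAJB1 and BAG3 reach 3.70 and ZFAND2A 4.72 at 12 h, while HSF1 lies at -0.08.

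The genes with the most similar pattern over the 6 libraries were found by Euclidean distance between log2 values centred on their own mean. For HSPA8 they were RNF216P1 (distance 0.129), RP9 (0.133), CCDC84 (0.140), HSP90AB1 (0.198) and HSPE1 (0.209). For HSPH1 they were BAG3 (0.575), TERC (0.619), LEAP2 (0.721), HIST1H2BL (0.761) and ALOXE3 (0.789). For the sum of HSPA1A and HSPA1B they were GADD45G (0.872), ZFAND2A (1.05), IL1RL1 (1.07), HMOX1 (1.14) and NAALAD2 (1.23). HSP90AB1, the constitutive cytosolic HSP90, tracked HSPA8 with 964 and 693 FPKM in DMSO and, with SpiD7, 1110 and 991 FPKM (2 h), 1576 FPKM (6 h) and 1826 FPKM (12 h). Like HSPA8 it was lower in replicate 2 of both replicated groups, so that the likeness includes the difference between replicates. The nearest genes of HSPA1A and HSPA1B were several times farther away than those of HSPA8. The distance is not scaled to the size of a change, which was larger for HSPA1A and HSPA1B. It therefore does not show which pattern is more particular.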

How the data were processed

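The authors trimmed the 50-base single-end reads (Trim Galore), aligned with TopHat2 2.0.8 and estimated FPKM with Cufflinks and Cuffdiff 2.1.1. The authors deposited FPKM for both sides of 4 Cuffdiff comparisons, each scaled on its own, with no counts. The paper states only an approximate read number per sample, so that the mapped depth of each library is unknown. Their columns of log2 fold changes, p-values and q-values were not used. Submitters' notes list the builds GRCm38 and hg38, and the deposited loci are human hg38. Besides 33085 table entries with a gene, 1 named none and was left out, and 0 value columns lacked a sample or group.

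The columns named for replicate 2 held the first library of their group, since of the 18195 (DMSO) and 18722 (2 h) entries above 0 in that library, 0 were at 0 in the column. They were read as group means, and replicate 2 was recovered by subtracting the first library's share (0.526 and 0.509) and dividing by it. Remainders under 0.2% were set to 0. Libraries of the 6 h and 12 h comparisons were divided by 0.972 and 0.994, from the shared DMSO library. Entries of a symbol were summed, genes with a mean under 1 FPKM dropped, and log2(FPKM + 0.1) fitted with limma 3.58.1 (R 4.3.3) in 4 groups (2 residual degrees of freedom), with Benjamini-Hochberg adjustment. Tables and alignments used Python 3.11.15, pandas 2.3.3 and Biopython 1.88. The limma fit was tested on simulated log2 values, which did not include the recovery of replicate 2. Promoters were RefSeq (GRCh38.p14), gene models GENCODE 29. The members, lists and tests were chosen with earlier results of these data known. Named besides the members were the highest and lowest gene of each list at 12 h, HSPA7, the 5 nearest patterns of 3 members and, chosen after their values were seen, HSF1, MIR6723, cell type markers and partners with 3-unit promoter matches. Alternatives were other pseudocounts, filters, scalings and repeated-symbol rules, an intensity trend, a replicate block, group columns without recovery, each replicate left out and, added after the data were examined, HSPA1A and HSPA1B summed.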

Additional observations from a re-analysis of the deposited data

How the results depend on the processing

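Under the alternatives, 353 values of single genes kept their direction and, where a test was run, their side of the adjusted threshold. Of the others, 5 reversed direction, 7 lost the adjusted threshold and 1 gained it. Many of the 353 could not turn. The other filters, the intensity trend and the replicate block leave the log2 fold changes as they are. Leaving out a 2 h library cannot alter those at 6 h and 12 h. The count of 353 is therefore no measure of how firm the values are. Of the counts of members, 89 were equal or close to the main count, and 8 moved further. Leaving out single replicates gave 5 to 6 members more than 2-fold higher at 2 h, 6 to 8 at 6 h and 7 to 8 at 12 h. The number of members called by limma was 0 at 6 h with a pseudocount of 0.01 or no filter, and 0 at 12 h with a pseudocount of 0.01 but 2 with a pseudocount of 1, where HSPA1B passed too (adjusted p = 0.0426 by limma). Leaving out single replicates gave 0 to 1 called members at 6 h and at 12 h, with 0 when either 2 h library was missing. There the spread rests on 1 replicated group. The log2 fold change of HSPA2 turned between -0.25 and 0.48 at 2 h, with -0.25 without DMSO replicate 1 and -0.08 without the second 2 h library, between -0.46 and 0.27 at 6 h, with 0.27 without DMSO replicate 2, and between -0.11 and 0.61 at 12 h, with -0.11 without DMSO replicate 1. That of HSPA4L at 2 h lay between -0.0099 (without DMSO replicate 2) and 1.31. With the replicate block, 0 members and 0 of all genes were called at 2 h, while 1874 genes had an unadjusted p-value under 0.05 against 378 without it. Same-numbered libraries share only a number in the labels. Over the genes kept, the deviations between replicates within DMSO and within 2 h correlated at 0.369. Without a filter, 96 and 263 of all genes were called at 6 h and 12 h, against 39 and 45. The cause of these differences was not tested. With 1 library at 6 h and 12 h, spread there is assumed and not measured, and without counts no counting error can be given.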
